A study of Danio rerio with 12 samples.

Results

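The genes described here are 44 genes of the larval zebrafish liver. They encode secreted plasma proteins, enzymes of amino acid and urate metabolism and, in fabp10a, a liver fatty acid binding protein. A list of 50 gene symbols was looked up in the deposited table, and 44 had a row with a mean scaled count of at least 10 over the 12 libraries, among 18390 genes of 32674 that reached this minimum. The other 6 symbols (cfi, f13b, fah, apoh, rbp4 and apoa1b) had no row under that name and were not analysed here. No listed gene was lost to the minimum, although hp, the haptoglobin gene, had a second row of 4.90 to 9.92 scaled counts that lay under it. The gene nearest the minimum from above was cps1, with a mean scaled count of 14.9. The 44 comprised 9 carrier and lipoprotein genes, 12 coagulation and adhesion genes, 10 genes of anticoagulants, fibrinolysis and protease inhibitors, 2 complement genes and 11 enzyme genes.

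RNA came from EK zebrafish, 5 days after fertilisation, of the F1 generation whose parents were kept on diets of 0 (control), 1, 3 or 10 ppm methylmercury (MeHg) for their whole life. MeHg is an organic mercury compound that builds up in fish. Every diet had 3 libraries, each from a pool of 5 whole embryos. The labels do not say whether pools of 1 diet had separate parents or clutches, so a p-value reflects only how far these pools spread, which may be technical. The question was whether the parents' diet left a difference in the offspring.

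The hepatocyte is the main source of the proteins of blood plasma. It secretes metal, haem, lipid and hormone carriers, fibrinogen and the clotting proteases, the serpins and other inhibitors that restrain those proteases, and complement. The same cell carries out much of the breakdown of tyrosine, tryptophan, methionine and purines, and in zebrafish the liver is formed and secreting at the stage sampled. Since whole embryos were used, fewer hepatocytes and less RNA per hepatocyte cannot be told apart. Some of the genes are also expressed outside the liver, such as apoa2 in the yolk syncytial layer.

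Hepatocyte genes were well detected. Values that compare genes are in FPKM, fragments scaled by transcript length and by library total. The lipoprotein gene apoa2 had the highest mean of the 44, 4917 ± 960 FPKM (SD over the 12 libraries), which ranked 22 among the tested genes. Next came fabp10a, the liver fatty acid binding protein gene that is a standard hepatocyte marker, with 2408 ± 370 FPKM and rank 93. The transferrin gene tfa had a mean of 734 FPKM and bhmt, which encodes betaine-homocysteine methyltransferase, 680 FPKM. At the other end cps1, in mammals the first enzyme of the urea cycle, had a mean of 0.586 FPKM. The median of the 44 was 56.7 FPKM, 26 were in the top 10% of tested genes, and none was at 0 in any library.

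Facts of the libraries that touch the results are as follows. Depth was between 5.63 and 11.8 M (mega) fragments, recovered from steps in the deposited values. The shallowest was library 3 of 1 ppm and the deepest library 3 of 10 ppm. Libraries correlated over the tested genes at 0.954 to 0.980 within diets and 0.926 to 0.978 between them. The circadian gene per1b had 549 to 864 scaled counts in libraries 2 and 3 of control and of 1 ppm and 49.4 to 78.6 in the other 8, so clock state was partly confounded with diet. The fast myosin genes myhz2, myhc4 and myha were listed at 0 in all 3 libraries of 3 ppm, while myhz2 had 14832 to 35539 scaled counts in the other 9, and whether these are true zeros was not tested. In this respect the 3 ppm pools, whose average liver gene level was the highest of the diets, stand apart from the rest. Results below are also given with adjustment for a clock score and without those 4 libraries where that changes them; leaving the 4 out leaves 1 control and 1 library of 1 ppm.

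Averaged over the libraries of a diet, without adjustment for clock score, the liver genes were lowest at 1 ppm and highest at 3 ppm. Control and 10 ppm lay between, and with that adjustment 3 ppm was not above control (median log2 fold change -0.045). The log2(scaled count + 1) of each gene was centred on its own mean over the 12 libraries, and the median of the 44 was taken in each library. That median was 0.19, -0.12 and 0.02 in control libraries 1 to 3, and -0.15, -0.19 and -0.44 at 1 ppm. It was 0.33, 0.15 and 0.08 at 3 ppm, and -0.04, -0.05 and 0.35 at 10 ppm. The highest single value was thus that of library 3 of 10 ppm. All 3 libraries of 1 ppm lay below all of control and of the higher diets, and all 3 of 3 ppm lay above 0, while control and 10 ppm each had libraries on both sides of 0. In the 1 ppm libraries 9, 9 and 3 of the 44 genes were above their own mean, against 37, 36 and 28 at 3 ppm. A principal component analysis of the 44 put 54.6% of their variance on the first component, where 41 of them had the same sign.

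**Figure D1:**
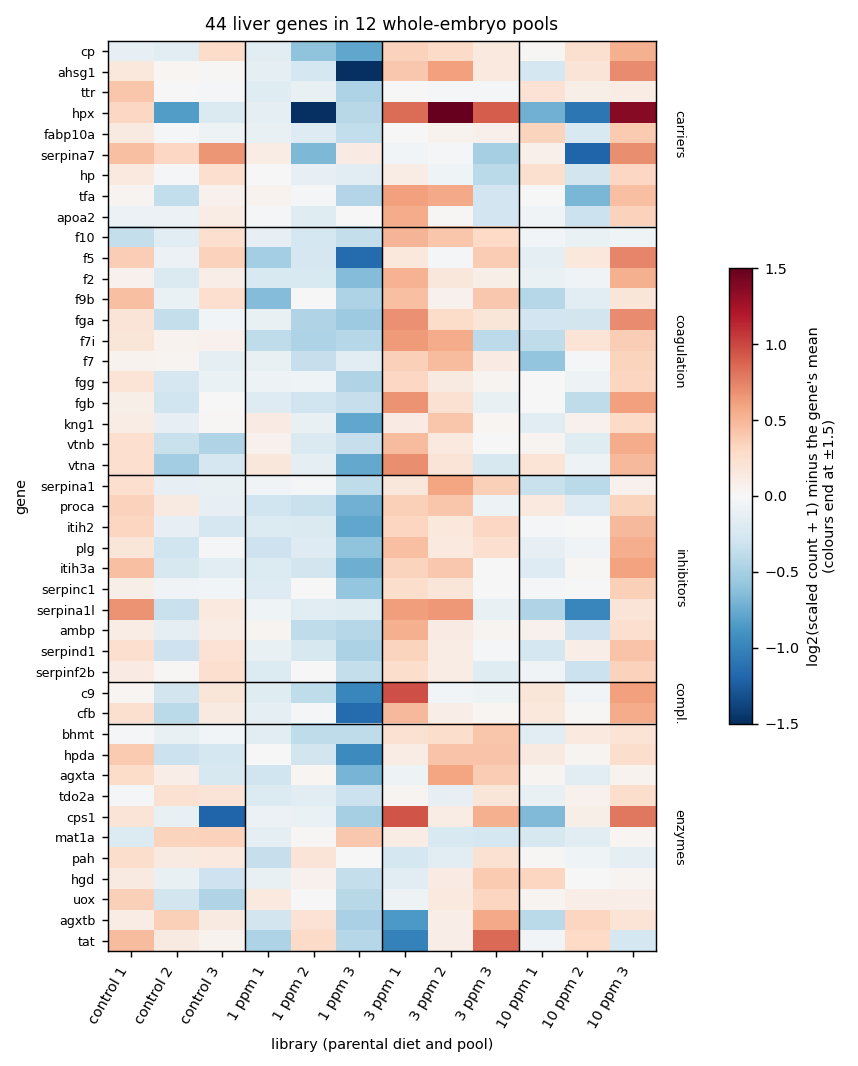
Centred log2(scaled count + 1) of the 44 liver genes (rows, by role and then by F-test p) in the 12 pools (columns, by parental diet); red is above and blue below the gene's mean, and colours end at 1.5 either way. Most rows are blue in the 3 columns of 1 ppm and red in those of 3 ppm, and library 3 of 1 ppm and library 3 of 10 ppm stand out within their diets.

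**Figure D2:**
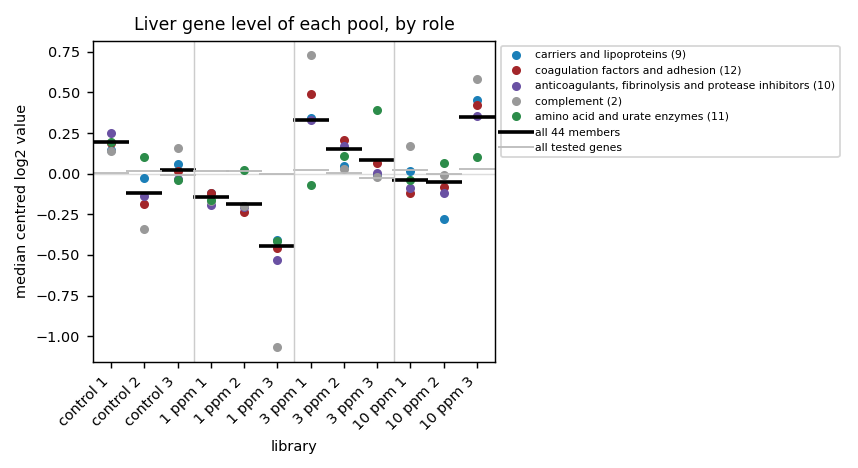
Median centred log2 value (y axis) of the genes of each role (coloured points, number of genes in the key), of all 44 (black bars) and of all tested genes (grey bars) in each pool (x axis). The black bar is below 0 in all 3 pools of 1 ppm and above 0 in all 3 pools of 3 ppm, and lowest in library 3 of 1 ppm at -0.44.

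Single libraries carried much of the spread. Library 3 of 1 ppm held the lowest value of the 12 for 24 of the 44 genes (54.5%), where it held the lowest for 20% of all tested genes. Library 3 of 10 ppm held the highest value for 18 (40.9%), against 4.91% of all tested genes. These were the shallowest and the deepest library, and the part of depth in this was not tested. The SD within diets on the log2 scale was between 0.128 for bhmt and 0.863 for hpx, the haem carrier gene hemopexin, with a median of 0.28.

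With limma, none of the 44 passed in any of the 6 comparisons between diets, in the F-test for any difference or in the trend over diets. The smallest adjusted p of a liver gene was 1.00 at 1 ppm against control, 0.396 (f10) at 3 ppm and 0.851 (pah and serpina1l, tied) at 10 ppm. It was 0.239 for 3 ppm against 1 ppm, 0.564 for 10 ppm against 1 ppm and 1.00 for 10 ppm against 3 ppm. Few genes passed anywhere: the share of all tested genes called was 0% at 1 ppm and 10 ppm against control, 0.0163% for 3 ppm against control, 3 ppm against 1 ppm, 10 ppm against 3 ppm and the F-test, 0% for 10 ppm against 1 ppm, and 0.0218% for the trend. In the F-test 13 liver genes had an unadjusted p under 0.05 (29.5%), against 8.59% of all tested genes, and in the trend 0 did, against 10.3%. limma-voom likewise called 0 of the 44 in each of these tests. What follows therefore describes sizes and counts at unadjusted p, none of which is a call. The 44 were chosen with earlier results of these data known, so their shares beside all tested genes are not independent of these data. They also varied together, so the genes counted are not separate observations.

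At 1 ppm against control, 41 of the 44 had lower means on the log2 scale (51.8% of tested genes did), with a median log2 fold change of -0.31 against -0.01 over all tested genes. Lower values with an unadjusted p under 0.05 were seen for 6 genes (13.6%), against 1.13% of all tested genes, and higher values for 0, against 0.837%. In 12 genes (27.3%) all 3 libraries of 1 ppm lay below all 3 controls, against 2.77% of tested genes. In 7 of these, bhmt, cp, f2, f5, proca, tdo2a and ttr, they lay below all 9 other libraries, against 0.517% of tested genes. Without library 3 of 1 ppm, 2 genes were lower at unadjusted p under 0.05 (background 1%) and the median was -0.21. The count was 11 without library 1 of 1 ppm (background 2.21%), 12 without library 2 (2.44%) and 10 after adjustment for the clock score (2.07%).

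At 3 ppm against control, 34 of the 44 had higher means (49.4% of tested genes did), with a median log2 fold change of 0.22. Unadjusted p was under 0.05 for 4 higher genes (9.09%), against 4.54% of tested genes, and for 0 lower ones, against 5.86%. The 4 were f10, bhmt, hpx and serpina1, named after their values were seen. In bhmt, hpx, f10 and f7 the 3 ppm libraries were all above control (9.09%, against 8.27% of tested genes), and in serpina7, which in mammals encodes a thyroxine carrier, all below (2.27%, against 9.45%). Size and direction depended on the fit. After adjustment for the clock score the median was -0.045 and 20 of 44 were higher. Without the 4 libraries of high clock score the median was 0.00, with 22 higher and 22 lower. In the latter fit the 1 control left is library 1, the control of highest liver median, so clock state and that library cannot be told apart. Leaving out control library 1 gave 10 genes instead of 4 (background 6.98%), leaving out control library 2 or 3 gave 2 (3.63% and 2.28%), and the median was 0.14 without control library 2 or without library 1 of 3 ppm.

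At 10 ppm against control, 28 of 44 had higher means (52.5% of tested genes did) and the median log2 fold change was 0.05. Unadjusted p was under 0.05 for 0 genes in either direction, where 2.89% of tested genes were higher and 2.82% lower at that level. The median was -0.11 without library 3 of 10 ppm, -0.01 without control library 2, -0.16 after adjustment for the clock score with 9 of 44 higher, and -0.12 without the 4 libraries with 11 higher, so its direction rested on those choices. The trend over the 4 diets followed neither the low values at 1 ppm nor the high ones at 3 ppm, which do not lie in order of dose.

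Of the 6 comparisons, that of the 2 lower MeHg diets had the median farthest from 0. At 3 ppm against 1 ppm 40 of the 44 had higher means (49.5% of tested genes did), with a median log2 fold change of 0.52 against -0.01 over all tested genes. Unadjusted p was under 0.05 for 25 higher genes (56.8%), against 7.92% of tested genes, and for 0 lower ones, against 7.85%. By role the 25 were 10 of 12 coagulation factors (median 0.59), 7 of 10 inhibitors (median 0.53), 2 of 2 complement genes (median 0.72), 3 of 9 carriers (median 0.27) and 3 of 11 enzymes (median 0.25), and the difference between roles was not tested. In 25 genes, not all of them the same, all 3 libraries of 3 ppm lay above all 3 of 1 ppm, against 10.6% of tested genes. The count at unadjusted p under 0.05 was 17 without library 3 of 1 ppm, where the background was 4.42%. It was 6 after adjustment for the clock score (background 3.57%, median 0.29) and 6 without the 4 libraries of high clock score (background 2.02%, median 0.39), which leaves 1 library of 1 ppm.

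The 10 ppm libraries also lay above those of 1 ppm, with 40 of 44 means higher (52% of tested genes were), a median of 0.31 and 16 genes higher at unadjusted p under 0.05 (36.4%), against 4.86% of tested genes, and 0 lower, against 3.22%. In 15 genes the 10 ppm libraries were all above those of 1 ppm, against 6.37% of tested genes. The count at unadjusted p was 3 (6.82%) without library 3 of 1 ppm (background 2.28%), without library 3 of 10 ppm (3.08%) and after adjustment for the clock score (2.32%), where the median was 0.17. With limma-voom the count was 10, where the background was 2.75% of tested genes. A fit without the high-clock libraries kept only 1 library of 1 ppm, and its median was 0.23. At 10 ppm against 3 ppm 31 of 44 were lower (48% of tested genes were), with a median of -0.10 (-0.26 without library 3 of 10 ppm). There 3 genes, serpina1, serpina1l and f10, were lower at unadjusted p under 0.05 (6.82%), against 1.12% of tested genes, and 0 were higher, against 2.65%. All libraries of 10 ppm were below all of 3 ppm in bhmt, serpina1 and f10 (4.42% of tested genes) and above them in ttr (6.54%). The count of lower genes was 10 without library 3 of 10 ppm (background 2.1%), 6 without library 3 of 3 ppm (1.42%) and 6 with limma-voom (2.51%). The comparisons share libraries, so they are not separate evidence for one another.

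**Figure D3:**
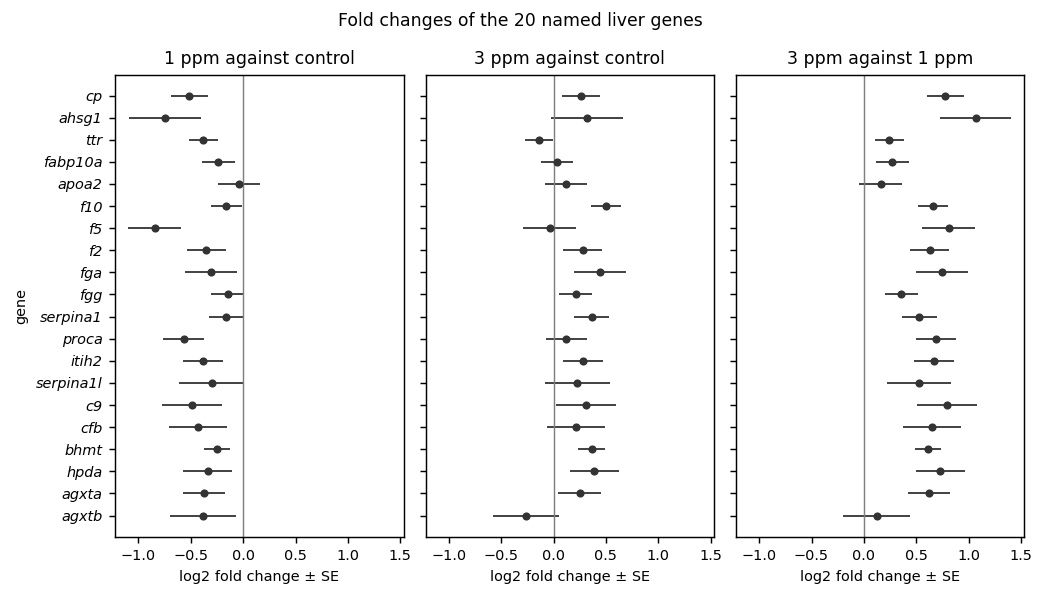
Log2 fold changes (points) with their SE (bars) from limma for the 20 named liver genes (y axis) in 3 comparisons (panels); the vertical line marks no difference. Most points are left of the line for 1 ppm against control and right of it for 3 ppm against 1 ppm, up to 1.07 for ahsg1, and none passed adjustment.

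Among the carriers, cp encodes ceruloplasmin, the copper carrier and ferroxidase of plasma. Scaled counts were 628, 615 and 826 in control, 611, 449 and 398 at 1 ppm, 868, 833 and 761 at 3 ppm and 692, 810 and 992 at 10 ppm. Every 1 ppm library was below every other library. For 3 ppm against 1 ppm its log2 fold change was 0.78 (SE 0.18, limma adjusted p = 0.239), the smallest adjusted p of the 44 in that comparison, shared with other genes. On FPKM that log2 fold change was 0.26 with a pseudocount of 1. Against control, the log2 fold change at 1 ppm was -0.52 (SE 0.18, limma adjusted p = 1.00), and -0.039 without the 4 libraries of high clock score.

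Fetuin is a plasma glycoprotein that binds calcium phosphate, and ahsg1 encodes it. Its scaled counts were 226, 207 and 205 in control, 182, 169 and 65.5 at 1 ppm, 269, 310 and 225 at 3 ppm and 168, 231 and 332 at 10 ppm. The low value of library 3 of 1 ppm stands out, and the 3 ppm libraries were above all 3 of 1 ppm. Its log2 fold change for 3 ppm against 1 ppm was 1.07 (SE 0.34, limma adjusted p = 0.239), and 0.60 without library 3 of 1 ppm.

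Transthyretin, a thyroid hormone carrier, is encoded by ttr. Counts of ttr were 597, 442 and 436 in control, 392, 411 and 323 at 1 ppm, 447, 436 and 442 at 3 ppm and 517, 474 and 483 at 10 ppm. All 3 values of 1 ppm were below the other 9 libraries, and control library 1 was the highest of all. The difference from control had a log2 fold change of -0.38 (SE 0.14, limma adjusted p = 1.00), and of -0.23 without control library 1. For fabp10a counts were 4914, 4417 and 4238 in control, 4135, 3910 and 3480 at 1 ppm, 4507, 4632 and 4741 at 3 ppm and 5667, 3826 and 5903 at 10 ppm. The 1 ppm libraries were below all controls, yet the 10 ppm libraries spanned from under the 1 ppm maximum to the highest value. Between 10 and 1 ppm the log2 fold change was 0.40 (SE 0.15, limma adjusted p = 0.602), and 0.59 without library 2 of 10 ppm.

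The abundant apoa2, an apolipoprotein of high-density lipoprotein, did not separate the diets. Its counts were 12546, 12515 and 14299 in control, 13134, 11678 and 13388 at 1 ppm, 19506, 13472 and 10877 at 3 ppm and 12765, 10637 and 16870 at 10 ppm. The highest and the second lowest value were both at 3 ppm, and the log2 fold change for 3 ppm against 1 ppm was 0.16 (SE 0.20, limma adjusted p = 0.711). Outside the naming rule and chosen after its values were seen, hpx had the widest range, 11-fold between its highest and lowest library. Its counts were 73.8, 32.9 and 51.1 in control, 53.6, 17.7 and 44.5 at 1 ppm, 107, 195 and 113 at 3 ppm and 35.5, 27.5 and 154 at 10 ppm. The 3 ppm libraries were above all others except library 3 of 10 ppm, with a log2 fold change for 3 ppm against 1 ppm of 1.90 (SE 0.61, limma adjusted p = 0.239).

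Among the clotting genes, factor X is the protease that turns prothrombin into thrombin, and f10 encodes it. Its scaled counts were 253, 292 and 388 in control, 298, 270 and 254 at 1 ppm, 464, 437 and 400 at 3 ppm and 317, 305 and 311 at 10 ppm. All 3 libraries of 3 ppm were above the other 9, which held for bhmt also and for no other liver gene (4.55%, against 1.04% of tested genes). Against control, the log2 fold change at 3 ppm was 0.50 (SE 0.15, limma adjusted p = 0.396), the smallest adjusted p of the 44 there. Its log2 fold change for 10 ppm against 3 ppm was -0.48 (SE 0.15, limma adjusted p = 1.00).

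Factor V, the cofactor of factor X, is encoded by f5. Scaled counts of f5 were 237, 172 and 233 in control, 128, 154 and 81.9 at 1 ppm, 205, 180 and 239 at 3 ppm and 167, 203 and 305 at 10 ppm. The 1 ppm libraries were below the other 9, and control, 3 ppm and 10 ppm overlapped one another. Against control the log2 fold change at 1 ppm was -0.85 (SE 0.25, limma adjusted p = 1.00), the lowest log2 fold change among the 44 in that comparison. Prothrombin, the precursor of thrombin, is encoded by f2. Its counts were 666, 549 and 686 in control, 543, 546 and 407 at 1 ppm, 918, 720 and 679 at 3 ppm and 594, 615 and 926 at 10 ppm. Here too 1 ppm was below all others, narrowly so against control library 2, and the log2 fold change for 3 ppm against 1 ppm was 0.63 (SE 0.19, limma adjusted p = 0.239).

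Fibrinogen, the precursor of fibrin, is built from 3 kinds of chain that fga, fgb and fgg encode. For fga counts were 1105, 754 and 939 in control, 890, 707 and 661 at 1 ppm, 1547, 1166 and 1097 at 3 ppm and 790, 798 and 1574 at 10 ppm. For fgg they were 1156, 841 and 935 in control, 948, 961 and 735 at 1 ppm, 1240, 1100 and 1031 at 3 ppm and 1004, 947 and 1251 at 10 ppm. The 3 ppm libraries were above all of 1 ppm in both genes, and control overlapped both diets. The log2 fold change for 3 ppm against 1 ppm in fga was 0.75 (SE 0.25, limma adjusted p = 0.239), and the log2 fold change in fgg was 0.36 (SE 0.16, limma adjusted p = 0.301). The chain gene outside the naming rule, fgb, had a log2 fold change of 0.54 (SE 0.23, limma adjusted p = 0.293) in that comparison, and of 0.34 without library 1 of 3 ppm. For fga it was 0.34 on FPKM with a pseudocount of 1, and for fgg 0.23 without library 3 of 1 ppm.

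**Figure D4:**
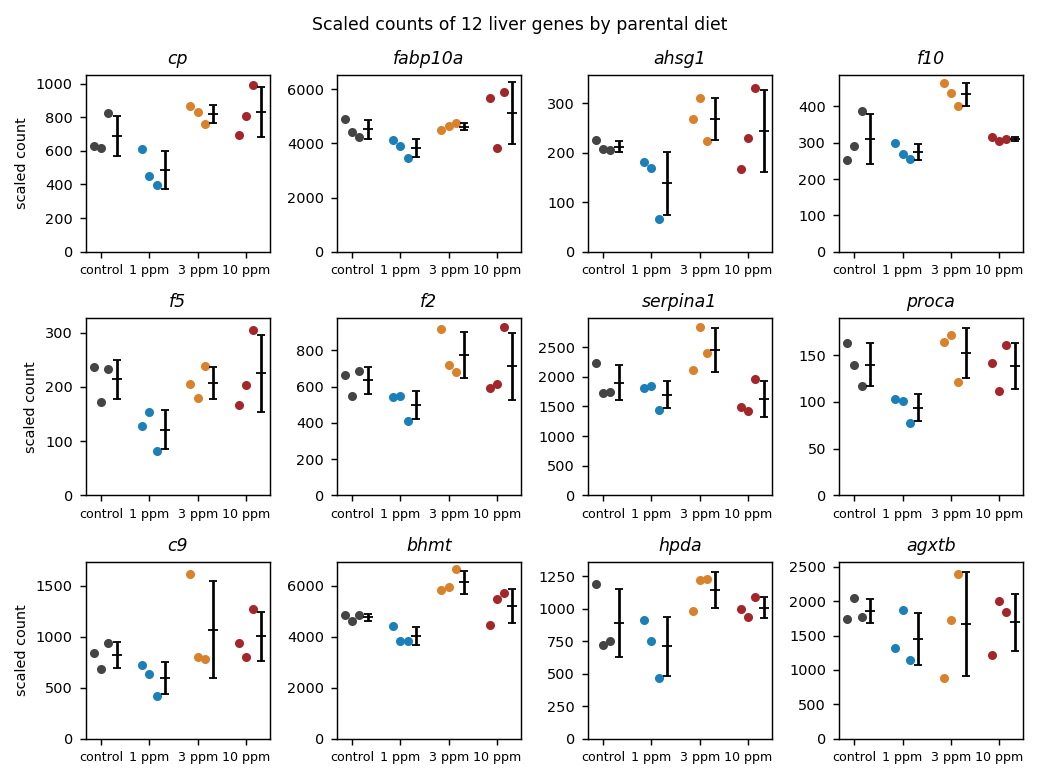
Scaled counts (y axis, from 0, a range of its own in each panel) of 12 liver genes by parental diet (x axis); points are the 3 pools and the bar beside them the mean ± SD (n = 3). In cp, f5, f2, proca and bhmt the 3 pools of 1 ppm lie below the other 9, in f10 and bhmt the 3 pools of 3 ppm lie above them, and agxtb shows wide overlap.

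Of the protease inhibitors, serpina1 encodes the zebrafish alpha-1-antitrypsin, which inhibits neutrophil elastase in mammals. Its scaled counts were 2239, 1724 and 1748 in control, 1816, 1842 and 1445 at 1 ppm, 2110, 2841 and 2409 at 3 ppm and 1489, 1421 and 1969 at 10 ppm. The 3 ppm libraries were above all of 1 ppm and of 10 ppm, and overlapped control, whose library 1 was high. Its log2 fold change for 10 ppm against 3 ppm was -0.60 (SE 0.17, limma adjusted p = 1.00). Its paralogue serpina1l had scaled counts of 2209, 1095 and 1534 in control, 1328, 1232 and 1217 at 1 ppm, 2146, 2164 and 1283 at 3 ppm and 1010, 699 and 1580 at 10 ppm. Diets overlapped in this paralogue, and the log2 fold change for 10 ppm against 3 ppm was -0.80 (SE 0.31, limma adjusted p = 1.00), and -0.52 without library 2 of 10 ppm. Reads may be split between such near copies in a way that is not stated in the labels.

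Protein C is the protease that inactivates factor V, and proca encodes it. Scaled counts of proca were 162, 140 and 117 in control, 103, 101 and 77.2 at 1 ppm, 164, 171 and 121 at 3 ppm and 142, 112 and 161 at 10 ppm. All of 1 ppm were below the other 9 libraries. Against control the log2 fold change at 1 ppm was -0.57 (SE 0.19, limma adjusted p = 1.00). A heavy chain of the inter-alpha-trypsin inhibitor is encoded by itih2. Its counts were 791, 577 and 529 in control, 546, 541 and 367 at 1 ppm, 791, 705 and 780 at 3 ppm and 619, 635 and 886 at 10 ppm. Libraries of 3 ppm were above all 3 of 1 ppm, and controls overlapped both, with a log2 fold change for 3 ppm against 1 ppm of 0.67 (SE 0.19, limma adjusted p = 0.239).

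Complement had 2 measured genes. The last component of the membrane attack complex is encoded by c9. Its scaled counts were 845, 682 and 937 in control, 727, 637 and 420 at 1 ppm, 1618, 803 and 785 at 3 ppm and 941, 807 and 1271 at 10 ppm. Library 1 of 3 ppm was far above the rest and library 3 of 1 ppm the lowest, and the log2 fold change for 3 ppm against 1 ppm was 0.80 (SE 0.29, limma adjusted p = 0.253), and 0.45 without that library of 3 ppm. Factor B, the protease of the alternative pathway convertase, is encoded by cfb. Its counts were 445, 284 and 412 in control, 340, 372 and 168 at 1 ppm, 528, 403 and 385 at 3 ppm and 418, 381 and 552 at 10 ppm. The 3 ppm libraries were above the 1 ppm ones and within the range of control and 10 ppm, with a log2 fold change for 3 ppm against 1 ppm of 0.65 (SE 0.28, limma adjusted p = 0.293), and of 0.29 without library 3 of 1 ppm.

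Of the enzymes, bhmt remethylates homocysteine to methionine with betaine as donor. Its scaled counts were 4851, 4610 and 4845 in control, 4439, 3820 and 3820 at 1 ppm, 5835, 5942 and 6655 at 3 ppm and 4452, 5491 and 5719 at 10 ppm. The 3 ppm libraries lay above and the 1 ppm libraries below the other libraries, in both cases by a small gap to 10 ppm. The nearest values were 5835 against 5719 at the upper end and 4439 against 4452 at the lower. The gene bhmt had the smallest spread of the 44. Its log2 fold change for 3 ppm against 1 ppm was 0.61 (SE 0.13, limma adjusted p = 0.239). Against control the log2 fold change at 3 ppm was 0.36 (SE 0.13, limma adjusted p = 0.415).

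The second step of tyrosine breakdown is carried out by 4-hydroxyphenylpyruvate dioxygenase, encoded by hpda. Its counts were 1192, 723 and 756 in control, 915, 750 and 468 at 1 ppm, 983, 1219 and 1226 at 3 ppm and 999, 933 and 1094 at 10 ppm. The 3 ppm and 10 ppm libraries were above all of 1 ppm, and control library 1 lay within the range of 3 ppm. Between 3 and 1 ppm the log2 fold change was 0.73 (SE 0.23, limma adjusted p = 0.239), and 0.46 without library 3 of 1 ppm. The first step is carried out by tyrosine aminotransferase, whose gene tat is a textbook glucocorticoid target in mammals. Counts of tat were 1416, 1124 and 1062 in control, 738, 1244 and 758 at 1 ppm, 506, 1094 and 1834 at 3 ppm and 993, 1256 and 850 at 10 ppm. Diets overlapped throughout, with the lowest and the highest value both at 3 ppm, and the log2 fold change for 3 ppm against 1 ppm was 0.18 (SE 0.38, limma adjusted p = 0.834). The glucocorticoid target fkbp5 had 493, 253 and 940 scaled counts in those 3 libraries, and 63.4 to 2166 over all 12.

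Alanine-glyoxylate aminotransferase, which detoxifies glyoxylate, is encoded by the paralogues agxta and agxtb. Counts of agxta were 443, 392 and 309 in control, 297, 372 and 223 at 1 ppm, 346, 549 and 475 at 3 ppm and 374, 325 and 377 at 10 ppm. Those of agxtb were 1738, 2053 and 1767 in control, 1325, 1874 and 1149 at 1 ppm, 887, 1730 and 2390 at 3 ppm and 1219, 2008 and 1847 at 10 ppm. In both genes the diets overlapped. The log2 fold change for 3 ppm against 1 ppm in agxta was 0.62 (SE 0.20, limma adjusted p = 0.239), and the log2 fold change in agxtb was 0.12 (SE 0.32, limma adjusted p = 0.872). Of the remaining enzymes, tdo2a, which opens the ring of tryptophan, had all 1 ppm values (387 to 431 scaled counts) below the other 9 (445 to 583), with a log2 fold change against control of -0.36 (SE 0.13, limma adjusted p = 1.00).

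Several of these differences were smaller with the clock score as covariate or without the 4 libraries of high clock score, and those that moved most are listed. For 3 ppm against 1 ppm, bhmt, f10, f5, f2 and agxta moved less in both fits. With the clock score as covariate the log2 fold changes for 3 ppm against 1 ppm were 0.70 in ahsg1, 0.47 in fga, 0.13 in fgg, 0.33 in serpina1, 0.45 in proca, 0.35 in itih2, 0.30 in cfb and 0.24 in hpda. Without the 4 libraries they were 0.42 in cp, 0.47 in c9, 0.54 in ahsg1, 0.50 in fga, 0.35 in cfb and 0.31 in hpda. In that fit tdo2a had -0.18 and ttr -0.60 at 1 ppm against control, and f10 had 0.77 at 3 ppm against control.

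At 3 ppm against 1 ppm, genes of the same pathways outside the 44 gave smaller medians than the 0.52 of the 44. The 44 and these lists were chosen with earlier results of these data known, so this contrast is not independent of them. By role, the carriers and the enzymes among the 44 had medians of 0.27 and 0.25. Over all tested genes 49.5% were higher at 3 ppm than at 1 ppm, 7.92% were higher and 7.85% lower at unadjusted p under 0.05, and the counts of these lists are to be read against those shares. Of 65 tested genes of other plasma proteins (103 listed), 48 were higher at 3 ppm than at 1 ppm with a median of 0.25, 16 higher and 2 lower at unadjusted p under 0.05, and 0 passed with limma. The 3 of smallest F-test p were agt, the angiotensinogen gene, and the complement genes c3a.2 and c4. Counts of agt were 362, 249 and 245 in control, 374, 251 and 236 at 1 ppm, 584, 390 and 396 at 3 ppm and 456, 419 and 612 at 10 ppm. All libraries of 3 ppm and 10 ppm were above every control, and the log2 fold change for 10 ppm against control was 0.80 (SE 0.23, limma adjusted p = 0.664), and 0.32 with the clock score as covariate. The log2 fold change for 3 ppm against 1 ppm was 0.94 in c3a.2 (0.51 with that covariate) and -0.66 in c4.

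Of 55 tested genes of other amino acid and nitrogen enzymes (75 listed), 32 were higher at 3 ppm than at 1 ppm with a median of 0.05, 9 higher and 1 lower at unadjusted p under 0.05, and 0 passed. The 3 of smallest F-test p were dmgdh, hal and sardh. Dimethylglycine, a product of the bhmt reaction, is demethylated by the enzyme of dmgdh to sarcosine, which the enzyme of sardh turns into glycine. Counts of dmgdh were 264, 247 and 211 in control, 247, 161 and 184 at 1 ppm, 363, 355 and 385 at 3 ppm and 177, 294 and 332 at 10 ppm. Those of sardh were 176, 146 and 163 in control, 155, 96.3 and 122 at 1 ppm, 260, 210 and 177 at 3 ppm and 141, 183 and 229 at 10 ppm. In dmgdh the 3 ppm libraries were above the other 9, as in bhmt, while in sardh they were above all of 1 ppm and overlapped 10 ppm. Here the log2 fold change for 3 ppm against 1 ppm in dmgdh was 0.92 (SE 0.21, limma adjusted p = 0.239), and the log2 fold change in sardh was 0.80 (SE 0.21, limma adjusted p = 0.239). In hal, the histidine ammonia-lyase gene, the log2 fold change for 3 ppm against 1 ppm was 1.14 (SE 0.28, limma adjusted p = 0.239), and 0.60 with the clock score as covariate. Without the 4 libraries it was 0.57 in dmgdh and 0.46 in sardh. Of 18 tested liver transcription factor genes (26 listed), 13 were higher at 3 ppm than at 1 ppm with a median of 0.16, and 0 passed. Counts of tfcp2l1, of the smallest F-test p in that list, were 13.2, 19.6 and 17.9 in control, 43.4, 16.9 and 28.1 at 1 ppm, 71.5, 45.7 and 30.5 at 3 ppm and 42.2, 46.8 and 84.8 at 10 ppm. Control and 10 ppm did not overlap, and the log2 fold change for 10 ppm against control was 1.67 (SE 0.38, limma adjusted p = 0.525). Which organ the tfcp2l1 transcripts came from was not tested.

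Markers of other cell types were measured in the same pools as summed FPKM of each list. None of the markers in these lists was at 0 in any library; the myosin genes named above are not among them. The 6 tested macrophage markers (8 listed) summed to 24.1 to 25.1 in control and 20.9 to 22.0 at 1 ppm. Their sums were 22.7 to 32.2 at 3 ppm and 26.0 to 29.4 at 10 ppm. These sums were lowest at 1 ppm without overlap. In median centred log2 value the macrophage markers at 1 ppm lay below control but overlapped 10 ppm. That median was -0.124 in library 2 of 1 ppm and -0.144 in library 2 of 10 ppm. The part of macrophages in the result was not tested. The liver genes were lowest at 1 ppm without overlap in their median centred log2 value, but not in summed FPKM. Their summed FPKM was 10761 in library 1 of 1 ppm, above 10507 in control library 2. The summed FPKM of the 10 intestine markers (12 listed) was higher at 1 ppm (3269 to 3454) than in control (2842 to 3095). It spanned 2446 to 3669 at 3 ppm and 3110 to 3600 in the 10 ppm pools, above control there also. In median centred log2 value, however, these markers overlapped control in both diets. That median was -0.007, -0.002 and -0.099 in control, 0.158, 0.200 and -0.098 at 1 ppm, and -0.079, -0.071 and 0.204 at 10 ppm. The 7 endothelium markers (8 listed) were 33.1 to 36.6 in control, 31.3 to 38.9 at 1 ppm, 38.3 to 44.7 at 3 ppm and 32.7 to 39.5 for 10 ppm, above control at 3 ppm without overlap. In median centred log2 value all 3 libraries of 3 ppm (0.425, 0.024 and 0.193) were also above all of 1 ppm (-0.197, -0.048 and -0.218). Averaged by diet that median was -0.154 at 1 ppm, -0.081 in control, -0.006 at 10 ppm and 0.214 at 3 ppm, the order of the liver genes. The part of endothelium was not tested either. In summed FPKM the 13 exocrine pancreas genes (15 listed) ranged widely within diets, from 9775 to 29552 in control and 11040 to 34045 at 1 ppm. The 5 bile duct markers (6 listed) overlapped between control and 1 ppm, with 279 to 309 and 263 to 322, as did the 10 fast muscle genes, with 75709 to 111480 and 75407 to 109240. The 8 kidney tubule markers (9 listed) and 7 red blood cell markers (11 listed) also overlapped between control and 1 ppm. The kidney tubule sums at 10 ppm (310 to 383) were above all controls (229 to 302). Their median centred log2 values overlapped, from -0.194 to 0.046 in control and -0.096 to 0.238 at 10 ppm.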

How the data were processed

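RNA of 12 whole-embryo pools was sequenced from TruSeq libraries as paired ends of 100 bases, per the labels. The genome build Zv9 and the tools TopHat, Cuffnorm, cutadapt, FastQC and CASAVA 1.8.2 are listed per the submitters' processing notes. Tool roles, settings and the annotation are not given in any source used here. In the count table the values are a deposited signal, gene-level fragment counts scaled by the authors with 1 factor per library, as read from the values: between 98.2% and 98.7% of low values per library were whole multiples of 1 step, within 0.02 steps, and steps were 0.564 to 1.17. The deposited totals were 6.17 to 6.74 M. The deposited FPKM table was computed by the authors and was used for levels.

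limma 3.58.1 (R 4.3.3) was fitted to log2(scaled count + 1) of 18390 genes (mean of 10 or more), all 12 libraries in 1 fit, with a mean-variance trend and robust moderation. Fold changes on that scale understate the change of low genes. Two-sided tests, adjusted by Benjamini-Hochberg over all tested genes at 0.05, were the 6 comparisons between diets, an F-test and a trend over diet ranks. The fit was tested on simulated data. A clock score was the first principal component of 32 tested clock genes (87.6% of their variance). Alternatives were other scalings, filters and pseudocounts, FPKM, a replicate block, fits on 2 diets only, leaving out each library, and the clock adjustments; limma-voom was chosen after seeing the data. In each role the 3 genes of smallest F-test p, the 2 of highest mean FPKM and their paralogues were named, and up to 3 of smallest F-test p per further list; hpx, fgb, tat, tdo2a and serpina7 were added after their values were seen. The members and lists were chosen with earlier results of these data known. Python 3.11.15, pandas 2.3.3 and matplotlib 3.10.9 prepared tables and figures.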

Additional observations from a re-analysis of the deposited data

How the results depend on the processing

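No liver gene was called under any alternative run. The log2 fold changes of 50 differences recomputed for named genes kept their direction in all settings run, except 3. These were for 3 ppm against 1 ppm with single libraries left out. The gene apoa2 ranged from -0.070 (without library 1 of 3 ppm) to 0.35. For agxtb the range was -0.20 to 0.52 (below 0 without library 3 of 3 ppm or library 3 of 1 ppm). For tat it was -0.25 (without library 3 of 3 ppm) to 0.68. Apart from these 3, all of the 50 had an unadjusted p under 0.05 with limma in the main fit. A change of direction was therefore unlikely for them from the start, and the count is no test of their stability. The edgeR test was not run, because the lowest deposited values were not whole reads, and limma-voom took its place. Counts of all genes called moved. At 10 ppm against control (0) FPKM with pseudocounts of 0.1 and 1 gave 1 and 1. At 3 ppm against control (3) the clock covariate gave 6, and the fit without the 4 high-clock libraries 7. For 10 ppm against 3 ppm (3) the fit on 2 diets gave 5 and leaving out those 4 libraries 5, and for the F-test (3) the latter gave 7. For the trend (4) FPKM gave 1 and 1, and the clock covariate, a minimum mean of 50, no filter and leaving out the 4 libraries gave 0. Leaving out 1 library in turn gave 3 to 17 genes at 3 ppm against control, 0 to 41 at 10 ppm against control, 3 to 6 for 3 ppm against 1 ppm, 0 to 3 for 10 ppm against 1 ppm, 3 to 5 for 10 ppm against 3 ppm, 3 to 9 in the F-test and 0 to 146 for the trend; the highest at 3 and 10 ppm against control, in the F-test and in the trend (17, 41, 9 and 146) came without control library 1. The cause was not tested.

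The clock covariate took the median of the 44 at 3 ppm against control from 0.22 to -0.045, which reversed it, at 10 ppm against control to -0.16, for 3 ppm against 1 ppm from 0.52 to 0.29, and for 10 ppm against 1 ppm from 0.31 to 0.17. Without the 4 libraries the median at 3 ppm against control was 0.000379, and at 10 ppm -0.12, with 1 control library left. Over single libraries left out the medians were -0.36 to -0.21 (1 ppm against control), 0.14 to 0.33 (3 ppm), -0.11 to 0.17 (10 ppm), 0.41 to 0.60 (3 against 1 ppm), 0.20 to 0.41 (10 against 1 ppm) and -0.26 to -0.03 (10 against 3 ppm).

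Replicate numbers recur in each diet but showed no pairing over all diets. Deviations of same-numbered libraries correlated at -0.227 to 0.472 (median -0.008) and of others at -0.561 to 0.269 (median -0.0035). The highest values were between control and 1 ppm, 0.472 for library 1 and 0.442 for library 3, against -0.108 for library 2. Whether control and 1 ppm alone were paired was not tested. With the replicate block the trend called 1 gene instead of 4, and no liver gene. Depth limited cps1, at 5.38 to 27.3 scaled counts, the gene of lowest mean, and 3 pools per diet limited every test.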

Other observations

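Ratios between partners, computed per library from FPKM after the values had been seen, are given with no test. Among the chain genes of fibrinogen, fgb was at 0.60 to 0.94 of fgg and fga at 0.66 to 1.23 of fgg. FPKM and scaled counts of fga did not move together, so its ratio depends on the measure. Its log2 fold change for 3 ppm against 1 ppm was 0.75 on counts and 0.34 on FPKM with a pseudocount of 1. The vitronectin paralogues had vtna at 0.40 to 0.60 of vtnb. The ratio of f7i to f7, paralogues of the factor VII gene, was 1.41 ± 0.31 in control and 0.91 ± 0.15 at 1 ppm (SD, n = 3), and all 3 values of 1 ppm were below all 3 controls. The factor V gene f5 was 0.119 ± 0.006 of f2 in control and 0.084 ± 0.014 at 1 ppm, without overlap. At 3 ppm this ratio was 0.096 ± 0.022, overlapping both, and at 10 ppm 0.110 ± 0.009. How often ratios of other gene pairs separate diets in this way was not counted. For serpina1l over serpina1 the ratio was 0.49 to 1.01 and the diets overlapped.

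Library 1 of 3 ppm had all 12 coagulation genes above their own mean, while its 11 enzyme genes were mixed, 5 above and 6 below. The median centred log2 value of its coagulation genes was 0.49 and that of its enzyme genes -0.07, where library 3 of 3 ppm had 0.07 and 0.39. Within 1 diet these libraries thus ranked in opposite order for the 2 roles. The gene agxtb had 887 scaled counts in library 1 of 3 ppm and 2390 in library 3, and the ratio of agxta to agxtb was 0.47 and 0.24.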
